A study of Caenorhabditis elegans with 2 samples.

Results

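The genes described here are 38 *Caenorhabditis elegans* genes of sheath glia, socket glia and the apical extracellular matrix, and the data give the binding of the transcription factor PROS-1 in and around them. The members were chosen by name for their known roles, 20 in sheath glia, 7 in socket glia and 11 in the apical matrix, out of 19973 protein-coding genes in the annotation. The measurement was ChIP-seq, in which DNA attached to a protein of choice is pulled down with an antibody and sequenced. It was made on whole late embryos of both sexes, of unstated age, from strain OP500. All animals of this strain carry the unc-119(tm4063) mutation on chromosome III and the transgene wgIs500, which supplies pros-1 fused to eGFP. There was 1 group of 2 biological replicates, so no conditions were compared and no test between groups was possible.

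PROS-1 is the worm relative of fly Prospero and vertebrate PROX1, a family of factors with an atypical homeodomain. In worm sense organs the endings of sensory neurons pass through a channel made by a sheath glial cell and a socket glial cell, and the sheath cell secretes matrix around the endings. Earlier work placed PROS-1 in the amphid sheath glia, where it is needed for the expression of many glial genes for secreted and membrane proteins. The apical matrix is the layer of secreted proteins that lines epidermis, sense-organ channels and narrow tubes before and during cuticle formation.

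Regions kept by the authors after comparing the replicates by irreproducible discovery rate (IDR) are called IDR peaks, and the regions in the authors' longer lists, which include background, are called candidates. The IDR list held 737 peaks, with signal values from 26.4 to 127 in the authors' score. The pooled list and each replicate list held 30000 candidates each, and a rank is the place of a candidate by signal value within its own list. The lists carry no read totals, so depth is unknown. Glia are a small part of a whole embryo, and binding in fewer cells cannot be told apart from weaker binding per cell. The position of highest signal in a region is its summit. Each gene was searched for summits in a promoter window, reaching 1000 bp upstream and 200 bp downstream of each of its transcript starts, and in a wide window, the gene body plus 5000 bp upstream.

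A single glia or matrix gene, the lipocalin gene lpr-3, had an IDR peak of PROS-1. No gene of the sheath glia or socket glia lists had one in either window. The count of 1 of 38 in promoter windows was 2.63% (exact Clopper-Pearson 95% interval 0.0666% to 13.8%), beside 2.55% of all protein-coding genes. The 27 glial genes gave 0, with an exact upper limit of 12.8% by the same method. In the wide window the count was again 1 of 38, 2.63%, beside 6.0% of all genes. Long windows hold more summits, and the wide windows of the members had a median of 8412 bp against 7027 bp for all genes. Among the 10 members with a wide window of up to 7500 bp, 1 had an IDR summit, beside 4.28% of all genes of that length. Of the 28 members with longer windows none had one, where the shares of all genes were 7.39% in the next length class and 13.0% in the longest. These intervals and limits cover the counting of genes only.

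Below the IDR threshold most members held candidates, most of them weak. The members' share lay above that of all genes over the whole lists and among the 5000 strongest pooled candidates, and below it among the 2000 strongest. A pooled candidate lay in the promoter window of 21 of 38 members (55.3%), beside 41.9% of all genes. By list these were 11 of 20 sheath genes, 1 of 7 socket genes and 9 of 11 matrix genes. In the replicate lists the counts were 20 of 38 in replicate 1 (52.6%, beside 40.4% of all genes) and 19 of 38 in replicate 2 (beside 41.2%). The low share of the socket genes was also seen in replicate 2, with 1 of 7, but not in replicate 1, with 4 of 7 beside 9 of 20 sheath genes and 7 of 11 matrix genes. The wide window held a pooled candidate in 35 members (92.1%), beside 84.0% of all genes. It held a replicate 1 candidate in 37 members (beside 87.7%) and a replicate 2 candidate in 34 (beside 83.6%). Among the 2000 strongest pooled candidates, 2 members had one in the promoter window (5.26%, beside 6.19%) and 4 in the wide window (10.5%, beside 14.7%). Among the 5000 strongest pooled candidates, 6 members had one in the promoter window (15.8%, beside 11.8%) and 15 in the wide window (39.5%, beside 30.3%). By length of the wide window, from the shortest class to the longest, the latter count was 4 of 10, 4 of 18 and 7 of 10, beside 23.3%, 36.2% and 57.8%. No test was made of these differences. Members with a pooled candidate in the promoter window had a median rank of 12561 for the strongest one, and all such genes a median of 11116. In the wide window the medians were 6177 and 7797. The members' promoter windows together held 4.40 pooled candidates per 10000 bp, against 3.62 in all promoter windows.

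**Figure D1:**
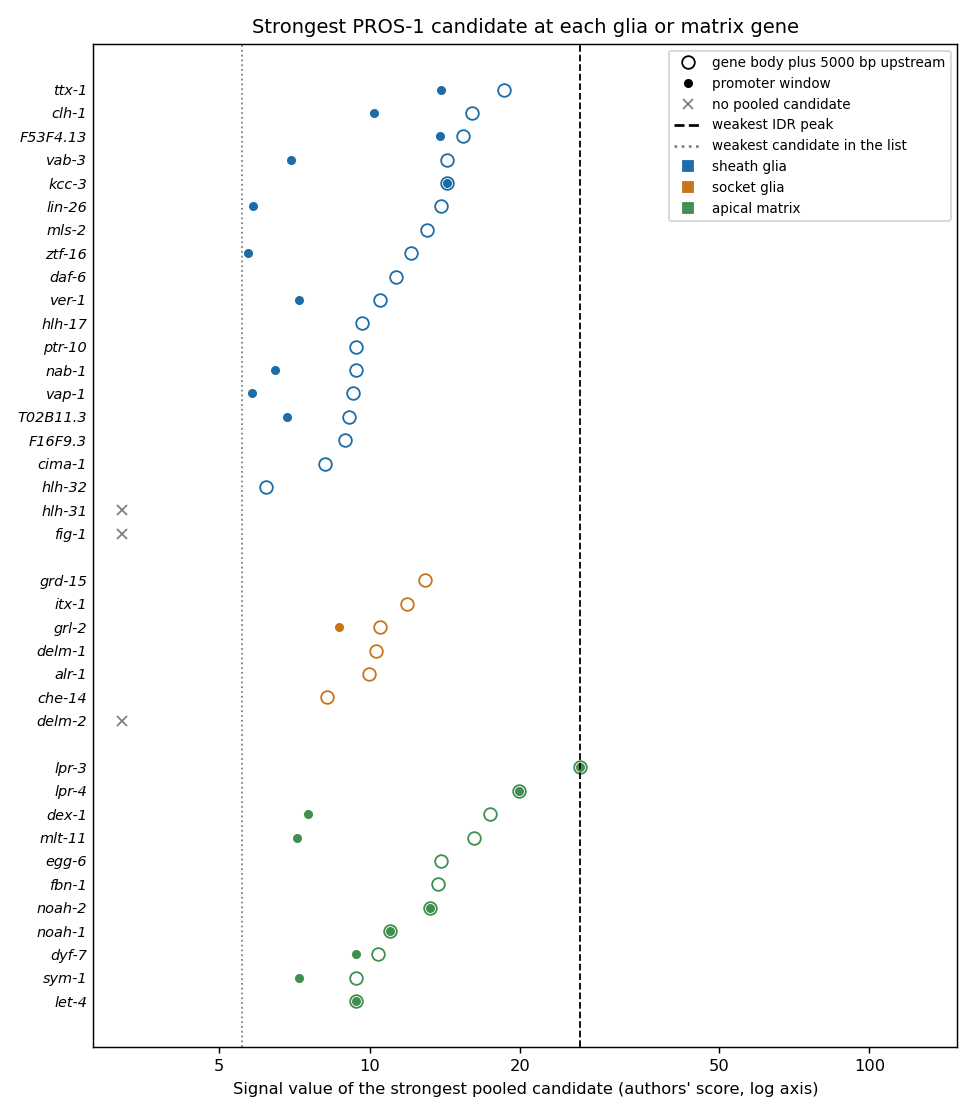
Signal value of the strongest pooled candidate (authors' score, log axis) in the wide window (open circles) and the promoter window (filled circles) of each of the 38 genes, ordered by strength within each list. The only gene at the IDR threshold (dashed line) is lpr-3, with 26.4, and 3 genes, marked by crosses, had no pooled candidate.

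**Figure D2:**
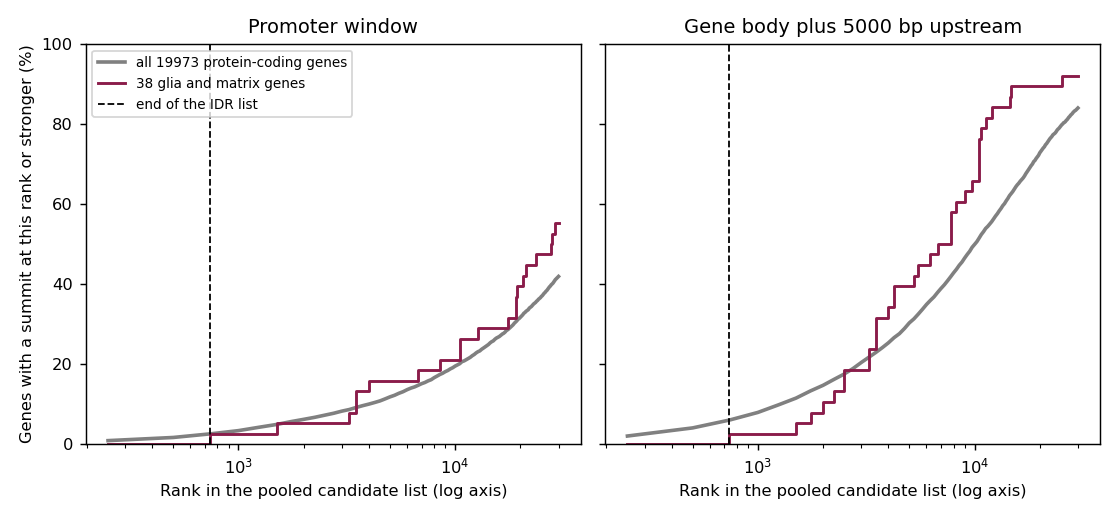
Percentage of genes with a summit at a given rank of the pooled list or stronger (log axis), for the 38 members and for all 19973 protein-coding genes, in the promoter window (left) and the wide window (right). The member line is at 2.63% at the end of the IDR list in both panels and ends at 55.3% and 92.1%.

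In the pooled list the strongest summits of the whole set lay at the lipocalin genes of the X chromosome. In replicate 1 the strongest were in the wide windows of ttx-1, nab-1 and vab-3, at ranks 246, 345 and 524. Those of noah-2, cima-1, T02B11.3, clh-1, ptr-10 and vap-1 (ranks 1021 to 1742) also came before lpr-4 (1903) and lpr-3 (2423). Lipocalins are small secreted proteins that bind lipids and similar molecules, and LPR-3 is a component of the early apical matrix. The lpr-3 gene (X, 11057401 to 11059793, plus strand, ce11 build, WBcel235) had its IDR peak at 11057181 to 11057504, with the summit 58 bp upstream of its start. The pooled signal value was 26.4, rank 736 of the 737 IDR peaks, with a −log10 q-value of 2.47. Replicate 2 had a summit 13 bp away with a signal value of 27.3 and rank 413. Replicate 1 had a summit 96 bp away with a signal value of 3.12 and rank 16976 of 30000. The peak was thus among the strongest regions of replicate 2 and among the weaker candidates of replicate 1. A non-coding RNA gene, C09F12.6, lay 29 bp from the summit. A second candidate lay 849 bp upstream of lpr-3, with a pooled signal value of 21.1 and rank 1196, and was matched in replicate 2 alone, at rank 1391.

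The related gene lpr-4 (X, 11065126 to 11066811, plus strand) had the next highest pooled value among the members, below the IDR threshold. Its candidate at 11064906 to 11065229 had a pooled signal value of 19.9 and rank 1334. It had nearly the same rank in both replicates, 1903 in replicate 1 (signal value 6.74) and 1765 in replicate 2 (14), with summits 13 bp and 1 bp from the pooled one. Its summit also lay 58 bp upstream of the gene's start.

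Between lpr-3 and lpr-4 lie the related genes lpr-6 and lpr-5, which are outside the member list, all 4 on the plus strand. At lpr-6 (start 11059994) the strongest promoter candidate lay 61 bp upstream, at 11059771 to 11060094, with a pooled signal value of 15.6 and rank 2398. Replicate 1 ranked this summit 188 (signal value 13.5), within its 737 strongest, and the nearest summit of replicate 2 was 1150 bp away. At lpr-5 (start 11062123) the summit was 46 bp downstream of the start, with a signal value of 8.93 and rank 11747. Its ranks were 26365 in replicate 1 and 18149 in replicate 2. Every one of the 4 starts therefore had a pooled summit within 61 bp, but the strongest start differed between the replicates. From 1000 bp upstream of lpr-3 to the end of lpr-4 there were 9 pooled candidates in 10411 bp, or 8.64 per 10000 bp, against 2.99 over the genome. This span was chosen after its values were seen.

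**Figure D3:**
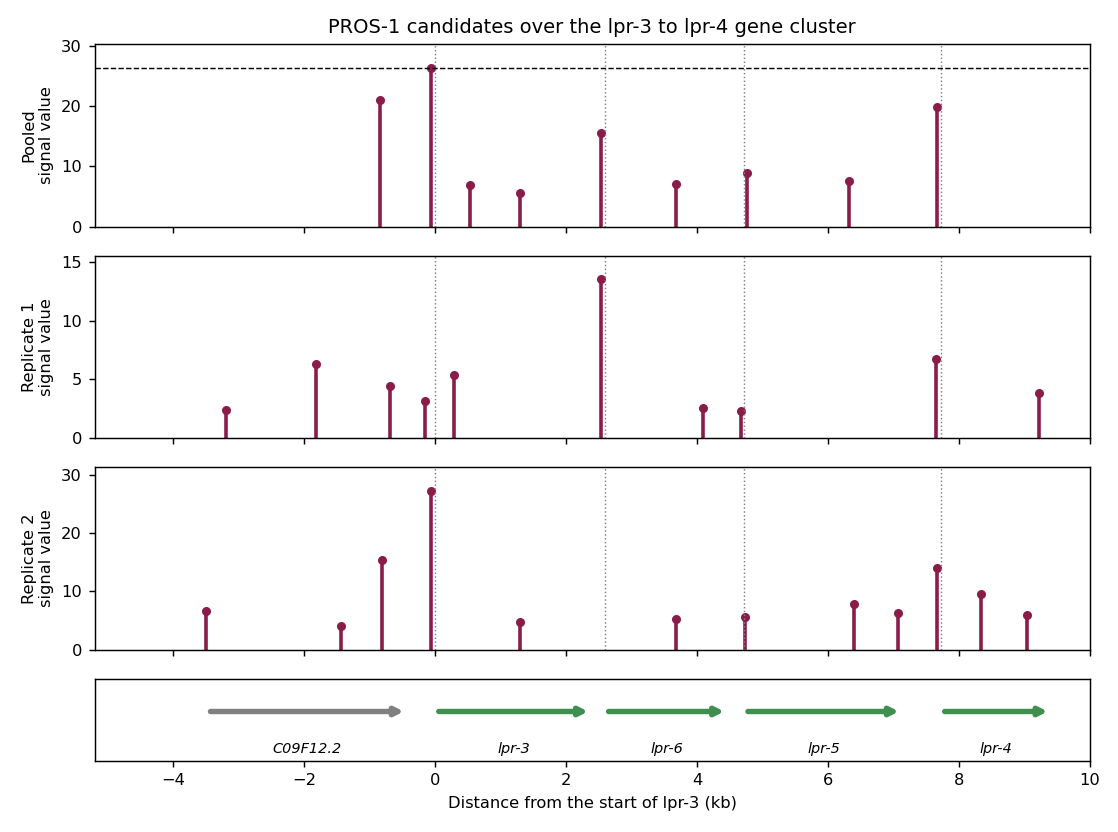
Signal values (authors' score) of candidate summits in the pooled, replicate 1 and replicate 2 lists along the lpr cluster, by distance in kb from the start of lpr-3, with dotted lines at the 4 lpr starts, genes drawn as arrows and the IDR threshold dashed. The highest point is at lpr-3 in the pooled list and in replicate 2 (26.4 and 27.3), and at lpr-6 in replicate 1 (13.5).

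The sequences below are centred on the pooled summit at these 3 lipocalin starts, from the RefSeq WBcel235 genome in the direction of the gene, to compare a region that passed the threshold with 2 neighbours that did not. Capitals mark matches to 3 motifs searched on both strands. These were the half-site of the Prospero family as bound by vertebrate PROX1 (AAGACG or AAGGCG), the GAGA repeat GAGAGAG and the GC-box GGGCGG.
lpr-3, chrX:11057283-11057403: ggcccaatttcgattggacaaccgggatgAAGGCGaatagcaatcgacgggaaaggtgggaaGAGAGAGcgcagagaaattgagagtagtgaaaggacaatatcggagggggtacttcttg
lpr-4, chrX:11065008-11065128: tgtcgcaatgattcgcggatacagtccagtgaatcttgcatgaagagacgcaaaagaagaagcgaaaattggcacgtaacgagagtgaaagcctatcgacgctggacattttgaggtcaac
lpr-6, chrX:11059873-11059993: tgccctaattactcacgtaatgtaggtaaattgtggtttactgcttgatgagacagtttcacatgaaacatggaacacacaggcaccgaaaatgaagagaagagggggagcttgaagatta

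The lpr-3 sequence held 1 half-site and 1 GAGA repeat, and those of lpr-4 and lpr-6 held none of the motifs. Their GC content was 50.4%, 46.3% and 41.3%, in the order printed. Among windows of this length around summits, the half-site occurred in 9.12% of pooled candidates and 14.2% of IDR peaks, the GAGA repeat in 4.95% and 21.8%, and the GC-box in 4.06% and 11%. The mean GC content was 40.7% for candidates and 51.8% for IDR peaks.

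The other 9 matrix genes had weaker candidates in the pooled list. The genes dyf-7 and dex-1 encode proteins that anchor sensory dendrites at the embryonic nose. The strongest candidate of dex-1 lay in an intron, 204 bp downstream of a start (pooled signal value 17.4, rank 1812). It was thus just outside the promoter window, which ends 200 bp downstream. Replicate 2 ranked it 3491, with its summit at 186 bp, inside that window, and replicate 1 had no summit within 100 bp. That of dyf-7 lay in the gene npr-18, 4698 bp upstream of the dyf-7 start, with a signal value of 10.4. In its own promoter window dyf-7 had a summit at 500 bp upstream with 9.40 and no match in either replicate.

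The genes noah-1 and noah-2 encode zona pellucida domain proteins of the epidermal matrix. The noah-2 candidate (IV, 14091129 to 14091452) lay 37 bp downstream of the start, with a pooled signal value of 13.2 and rank 3899, and neither replicate had a summit within 100 bp. The noah-1 candidate (I, 5879682 to 5880005) lay 886 bp upstream, with 11 and rank 6721, and had ranks 2860 in replicate 1 and 19077 in replicate 2. For fbn-1, a fibrillin-related gene, the strongest summit lay in an exon 1568 bp from the start, with 13.7, and was found in both replicates at ranks 13929 and 4407. For mlt-11, which encodes a protease inhibitor of molting, it lay 2112 bp upstream, with 16.2, at ranks 13460 and 1621. Both of these summits thus ranked higher in replicate 2. The strongest fbn-1 candidate of replicate 1 was a different one, in an exon 12075 bp from the start, at rank 2939.

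The 3 genes for extracellular leucine-rich repeat proteins, let-4, egg-6 and sym-1, all act in the apical matrix. The egg-6 summit was intronic, 982 bp from the start (pooled signal value 13.9, rank 3351), with rank 1432 in replicate 2 and no match in replicate 1. Downstream of let-4 on the X lies sym-1, and the strongest summit of both wide windows was the same one, 64 bp upstream of let-4 (signal value 9.38, rank 10361). It had rank 3071 in replicate 2 and no match in replicate 1. In its own promoter window sym-1 had a summit with 7.21 and rank 18908, not matched in either replicate.

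Among the genes for sheath products, fig-1, vap-1, T02B11.3, F16F9.3 and F53F4.13, no pooled candidate had a signal value above 15.4. The gene fig-1 encodes a thrombospondin-domain protein of the amphid sheath, and it had no pooled candidate in a wide window of 15869 bp. Its replicate candidates were weak, with best ranks of 5473 and 19579. For vap-1, which encodes a secreted protein of the amphid sheath, the strongest pooled summit lay in an exon 621 bp from the start (signal value 9.26), with rank 1742 in replicate 1 and no match in replicate 2. The summits of T02B11.3 (9.11) and F16F9.3 (8.91) lay nearer to the starts of T02B11.4 and dpy-6 than to their own. F53F4.13, listed in the annotation as spig-9, had a summit 3498 bp upstream (signal value 15.4, rank 2469) with rank 1213 in replicate 2 and no match in replicate 1. This summit lay within a pseudogene and nearer to the start of F53F4.7 than to that of F53F4.13. The promoter candidate of F53F4.13 (V, 13611674 to 13611997, 46 bp downstream of the start, signal value 13.8, rank 3466) was matched in neither replicate.

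Of the 4 ion channel and transporter genes, kcc-3 and clh-1 of the sheath glia had pooled promoter candidates and delm-1 and delm-2 of the socket glia had none. The potassium-chloride cotransporter gene kcc-3 had 2 of nearly equal strength. One lay 311 bp upstream of an internal start (II, 7431539 to 7431862, pooled signal value 14.3, rank 3105), also in the promoter window of srd-54, and had ranks 21779 in replicate 1 and 3707 in replicate 2. The other lay 126 bp upstream of the other start (7434246 to 7434569, 14.2, rank 3167), with rank 3586 in replicate 2 and no match in replicate 1. The chloride channel gene clh-1 had its strongest summit in an exon 3102 bp from the nearest start (16, rank 2257). It was found in both replicates, at ranks 5547 and 3536. The genes delm-1 and delm-2 encode subunits of sodium channels of the DEG/ENaC family. In its wide window delm-1 had 1 pooled candidate (signal value 10.3), within the gene daf-10 and matched in neither replicate, and delm-2 had none. Replicate 1 alone had a weak candidate 6 bp from the delm-1 start, at rank 26122.

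The genes for membrane and junction proteins had no member among the 5000 strongest pooled candidates in either window. These are ver-1, a receptor tyrosine kinase gene of the amphid sheath, daf-6, ptr-10 and che-14, which encode Patched-related or Dispatched-related proteins, itx-1, a neurexin-related gene, nab-1, the neurabin gene, and cima-1, a transporter gene that acts on glial position. Their strongest wide-window summits had pooled signal values from 8.14 at cima-1 to 11.9 at itx-1. The summits of daf-6 and ver-1 (10.5) lay in exons. Both were found in replicate 2, at ranks 3633 and 2668, and the daf-6 summit also in replicate 1, at rank 23015. That of ptr-10 (9.40) lay in an intron and that of che-14 (8.22) in an exon. The ptr-10 promoter window held no pooled candidate. Replicate 1 had one there at rank 1736 (signal value 6.92), 122 bp downstream of a start, its strongest promoter candidate of all members. Replicate 2 had one at rank 8778, 298 bp upstream, and the summits of the replicates did not match. The itx-1 summit lay nearer to another gene, W03D8.2, than to itx-1. That of cima-1 lay within the gene nrde-4, nearer to the start of hmg-5 than to that of cima-1. At nab-1 a summit 4619 bp upstream had a pooled signal value of 9.37 and rank 10381, but rank 345 in replicate 1, and replicate 2 had none within 100 bp. The Hedgehog-related genes of socket glia, grl-2 and grd-15, had signal values of 10.5 and 12.9 for the strongest summit, the latter within the gene Y87G2A.16. In its promoter window grl-2 had a summit 30 bp upstream of the start with 8.70 and rank 12561, the single pooled promoter candidate of the socket list. Replicate 1 also had weak promoter candidates at itx-1 (rank 27693) and che-14 (rank 14469).

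The 9 transcription factor genes differed widely. The highest pooled value was at ttx-1, the Otx-type homeodomain gene that acts on ver-1 in amphid sheath glia. Its strongest summit lay 4525 bp upstream (signal value 18.6, rank 1539) and had rank 246 in replicate 1 (signal value 12.1) and rank 20539 in replicate 2. In its promoter window a second summit, 209 bp upstream of an internal start (V, 20061467 to 20061790, 13.9, rank 3383), had rank 2564 in replicate 2 and no match in replicate 1. The upstream ttx-1 region was thus strong in replicate 1 and the internal one was seen only in replicate 2. At vab-3, the Pax6 gene, 12 pooled candidates lay in a window of 24691 bp. The strongest was intronic (14.3, rank 3083), with ranks 1791 and 5413 in the replicates. Another vab-3 intron held the strongest vab-3 summit of replicate 1, at rank 524 with a signal value of 9.86, which had pooled rank 4994 and no match in replicate 2.

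For mls-2, a homeodomain gene of cephalic sheath glia, lin-26, a zinc-finger gene of epithelial and glial fate, ztf-16, a zinc-finger gene of the amphid sheath, and alr-1, an Aristaless-type homeodomain gene, the strongest wide-window signal values were 13.0, 13.9, 12.1 and 9.97. The basic helix-loop-helix genes hlh-17, hlh-31 and hlh-32 are related to each other and are expressed in cephalic sheath glia. They had the fewest pooled candidates of the factor genes. No pooled candidate lay in the promoter window of any of them. In the wide window hlh-17 had 1 (signal value 9.64), 3781 bp upstream, within the gene F38C2.1 and nearer to the start of that gene. In the same window hlh-32 had 1 (6.20, rank 25122, the weakest strongest candidate of all members with one) and hlh-31 had 0. Repeated sequence, where alignments can be ambiguous, differed among the hlh genes. Of the 31-base words in the promoter window, 24.2% at hlh-17, 2.08% at hlh-31 and 0% at hlh-32 were repeated in the genome. In the wide window the shares were 6.65%, 8.04% and 30.8%, in the same order. Over 20% of promoter words were repeated in 2 members, hlh-17 and che-14, and in 9.14% of all genes. Its part in these counts was not tested.

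The 2 promoter candidates of sheath genes that follow are the strongest on the kcc-3 and ttx-1 starts, shown because these are the 2 sheath genes with the strongest pooled promoter candidates. They were chosen after their values were seen and are printed in the direction of the gene. Neither holds any of the 3 motifs. The second kcc-3 candidate, not printed, ranks between them and holds a half-site.
kcc-3, chrII:7431641-7431761: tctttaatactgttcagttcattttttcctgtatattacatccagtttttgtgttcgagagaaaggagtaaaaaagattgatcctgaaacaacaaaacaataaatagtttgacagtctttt
ttx-1, chrV:20061569-20061689: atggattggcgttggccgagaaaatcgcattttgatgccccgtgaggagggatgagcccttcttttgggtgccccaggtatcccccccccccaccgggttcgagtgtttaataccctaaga

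The kcc-3 sequence had a GC content of 28.9% and that of ttx-1 56.2%, with a run of 11 cytosines. Over all 27 promoter candidates of the members, within 50 bp of the summit, the mean GC content was 43.4% ± 7.99 (SD), between the 40.9% ± 9.19 of all pooled candidates and the 52.2% ± 6.92 of IDR peaks. A half-site occurred in 2 of the 27 (7.41%, beside 7.68% of all candidates), a GAGA repeat in 1 (3.70%, beside 4.24%) and a GC-box in 1 (3.70%, beside 3.32%). The half-sites were at lpr-3 and at the second kcc-3 candidate, the GAGA repeat at lpr-3 and the GC-box at vab-3.

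In position the promoter candidates of the members resembled those of all genes, with more of them near a start. Of the 27, 21 lay upstream of the nearest own start (77.8%, beside 79.3% over all genes), at a median of -90.0 bp against -248 bp. Within 100 bp of a start were 10 of 27 (37%, beside 23.1%), among them the summits of lpr-3, lpr-4, let-4, noah-2, mlt-11 and grl-2. The strongest wide-window summit of the 35 members with one lay in the own promoter window in 6 (17.1%, beside 26% over all genes). It lay in an own exon in 7 (20%, beside 12.6%) and in an own intron in 8 (22.9%, beside 10%). In 14 it lay upstream of the promoter window (40%, beside 51.5%). For 9 of the 35 (25.7%) another gene's start was nearer, beside 51.9% over all genes. No test was made of these differences.

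How often the replicates shared the members' summits depended on the distance allowed. Over all pooled candidates, 34.8% had a match within 100 bp in replicate 1, 60.1% in replicate 2 and 15.3% in both. The members' 27 promoter candidates were matched less often than the candidates in the promoter windows of all genes. A match was found for 8 in replicate 1 (29.6%, beside 36.7%), 13 in replicate 2 (48.1%, beside 62.4%) and 4 in both (14.8%, beside 18.5%). In neither replicate was a match found for 10 of the 27, beside 1833 of 9483. Of the 35 strongest wide-window summits, 26 had a match in replicate 2 (74.3%, beside 72.3% of the strongest summits of all genes). In replicate 1 a match was found for 16 (45.7%, beside 42.7%), and in both for 12 (34.3%, beside 27.5%). Within 50 bp the count in both was 4 (11.4%), beside 17.6%. Of the 14 with pooled ranks past the IDR list and up to 5000, 7 were matched in both, beside 44.1% of all candidates of those ranks. Of the 19 with ranks past 5000 and up to 15000, 4 were, beside 16.7%. In 5 of the 35 members the summit was matched in neither replicate. The same count over the strongest summits of all genes is not given here, so this shows nothing particular to the members. Among all 30000 pooled candidates 6130 were matched in neither. These are not limited to the strongest of a gene, so they are not a like comparison. Among the 737 strongest candidates of replicate 1, 0 lay in a member's promoter window (2.21% of all genes had one) and 3 members, ttx-1, nab-1 and vab-3, had one in the wide window (7.89%, beside 5.83%). For replicate 2 the count was 1 in each window, lpr-3 (2.63%, beside 2.37% and 5.76%). No member was in both sets. The share of all genes in both is not given here, so this shows nothing particular to the members.

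**Figure D4:**
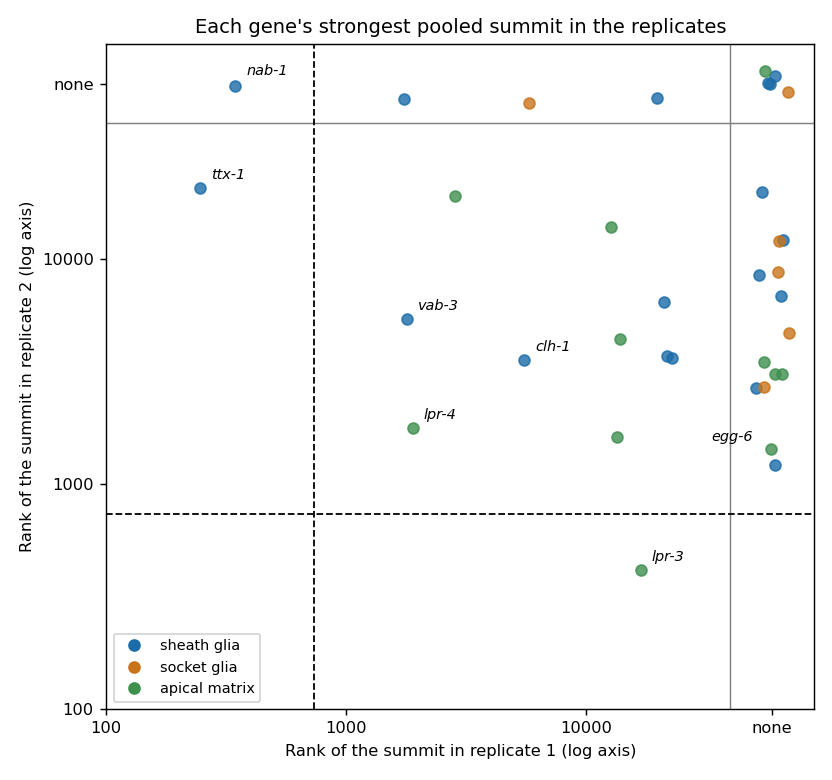
Rank in replicate 1 and in replicate 2 (log axes) of the strongest pooled wide-window summit of each of the 35 members with one, with summits lacking a match within 100 bp placed in the band marked none (spread slightly to show overlaps) and dashed lines at rank 737. The corner inside both dashed lines is empty, but no share of all genes is given beside it, so this shows nothing particular to the members. The lpr-3 summit is strong in replicate 2 alone, ttx-1 and nab-1 in replicate 1 alone, and lpr-4 has similar ranks in both.

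A further list of 20 genes of glia and matrix, of which 19 were found in the annotation, gave 1 with an IDR summit in the promoter window (5.26%, beside the 2.55% of all genes) and 4 in the wide window (21.1%, beside 6.0%). The 4 were lit-1, which encodes the Nemo-like kinase, pros-1 itself, lpr-5 and lpr-6. The last 2 were counted through the lpr-3 peak, which lay in their upstream sequence, so the 4 genes had their summits at 3 loci. By length of the wide window, from the shortest class to the longest, the count was 2 of 3, 1 of 13 and 1 of 3. The shares of all genes in these classes were 4.28%, 7.39% and 13.0%. The pros-1 gene is also carried by the transgene. The genes with no IDR summit in either window included the glutamate transporter gene glt-1, the matrix gene let-653 and the molting genes mlt-8, mlt-9 and mlt-10.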

How the data were processed

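PROS-1 ChIP-seq peak lists in the ce11 build were used. Per the text files deposited with the samples, the authors compared each replicate, and the reads of both together, with a control to call candidates, and then applied an IDR threshold, whose level is not given in the sources used here. Nor are the aligner, the caller and the processing of the control. The deposited signal value is a score of unstated scale, used here only within its own list. The q-value is deposited as its −log10. Lists in ce10, reads and signal tracks were not used. The p-value column was unfilled in the lists used.

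Gene models were those of Ensembl release 115 for WBcel235, the assembly of ce11. Transcript starts were those of protein-coding transcripts. F53F4.13 was matched by its locus tag and the other 37 members by symbol. A summit was matched between lists within 100 bp, taking the strongest candidate there. Members and lists were chosen with earlier results of these data known, so no list was tested. Most counts stand beside the share of all protein-coding genes. Genes given full values were, by rule, members with an IDR summit, the 6 others with the strongest promoter candidates, the 2 weakest and all without a candidate, those among the 737 strongest of a replicate, and the hlh and lpr genes. Further values are given to account for every member. The window search was tested on simulated data. Scripts ran in Python 3.11.15 with pandas 2.3.3, numpy 2.4.6, scipy 1.17.1 and matplotlib 3.10.9.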

Additional observations from a re-analysis of the deposited data

How the results depend on the processing

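The count of members with an IDR summit, 1 in each window, rests on a peak at the end of the IDR list. It was 1 for lpr-3 under every other promoter window tried (500 to 100 bp, 2000 to 500 bp, the most upstream start alone). The same held with nearest-start assignment and with peak overlap in place of the summit. It also held with 2000 bp upstream or upstream sequence only as far as the next gene. The shares of all genes ran from 1.83% to 3.54% in these promoter settings and from 3.06% to 6.23% in the wide-window ones. Without replicate 1 or replicate 2, using the other's 737 strongest candidates, the count ran from 0 to 1 in promoters and from 1 to 3 in the wide window, where it was 3 without replicate 2 and lpr-3 was not among them. In the stronger 50% of the IDR list it was 0 in both windows, beside 1.23% of all genes in promoters and 2.95% in the wide window. Among the 2000 strongest pooled candidates it was 2 in promoters (lpr-3 and lpr-4, 6.19% of all genes) and 4 in the wide window (with ttx-1 and dex-1, 14.7%). With 10000 bp upstream it was 2 (beside 8.96% of all genes), since lpr-4 then takes in the lpr-3 peak. The count of strongest summits matched in both replicates, 12, was 4 within 50 bp, 15 within 200 bp and 17 by overlap, and 16 to 26 where 1 replicate was enough. No paired analysis was possible because there was 1 group. Depth is unknown, and a peak missing from these lists does not show that binding is absent.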

Other observations

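Among the 19 further glia and matrix genes, 6 had one of the 737 strongest candidates of replicate 1 in the wide window (31.6%, beside 5.83% of all genes) and 4 one of replicate 2 (21.1%, beside 5.76%). In replicate 1 these were lit-1 (rank 610), pros-1 (268), igdb-2 (356), the girdin gene grdn-1 (617), and lpr-5 and lpr-6, which share the summit of rank 188. The 4 of replicate 2 were lit-1 (342), pros-1 (299), and lpr-5 and lpr-6, which share the lpr-3 summit of rank 413. The wide windows of lit-1 and grdn-1 were long, 27414 and 26388 bp, and these shares were not split by window length. The igdb-2 summit lay 3674 bp upstream and the grdn-1 summit 3017 bp upstream, and their ranks in replicate 2 were 12579 and 10567. The pros-1 intronic summit had ranks 268 and 299 in the replicates, closer to each other than those of any other gene in this group of 6. These genes were listed with earlier results known, and no test was made.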
